A study of Danio rerio with 19 samples.

Results

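The genes described here are sox10, foxd3, sox2, fabp7a and snai2, 5 of the 31953 genes in a deposited table of 19 zebrafish RNA sequencing libraries. They were taken by gene name, and each name matched 1 gene: sox10 (ENSDARG00000077467), foxd3 (ENSDARG00000021032), sox2 (ENSDARG00000070913), fabp7a (ENSDARG00000007697) and snai2 (ENSDARG00000040046). All 5 passed the filter on low values in both model fits used.

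Neural crest cells leave the edge of the forming neural tube, migrate, and give rise to peripheral neurons and glia, pigment cells and the skeleton of the face. Sox10, an HMG-box factor of the SoxE group, and Foxd3, a winged-helix factor, are specifiers of early crest and stay active in its glial lineages. Sox2, a SoxB1 factor, keeps neural and sensory progenitors undifferentiated. Fabp7a is a zebrafish form of the brain fatty acid binding protein found in radial glia and, in mouse, in Schwann cell precursors. Snai2 (Slug) is a zinc-finger repressor associated with the epithelial-to-mesenchymal transition of crest. The label of crest progenitor and glial genes therefore joins factors of several tissues.

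The libraries were made from cells sorted on the transgenes fli1a:GFP, active in arch crest and vessels, and sox10:DsRed, active in crest and its derivatives. All arch libraries, 13 in number, were sorted at 36 hours post fertilization (hpf). Wild-type cells positive for both reporters, here called all-arch, gave 3 libraries. Wild-type cells sorted for sox10 together with hand2 (ventral arch) gave 2 libraries and those sorted for sox10 together with dlx5a gave 1, and their titles do not name fli1a. Arch cells of edn1-/- embryos, which lack an endothelin ligand of the ventral arch, gave 2 libraries. Genotyped jag1b-/- embryos, which lack a Notch ligand, and jag1b+/+ embryos gave 1 each. Heat-shocked embryos with hsp70I:Gal4 alone, with added UAS:Edn1, or with added UAS:Nicd (the active Notch intracellular domain, NICD) gave 1 each. The heat shock promoter acts in all cells, so these treatments are not limited to the arches. The controls were 3 wild-type fli1a-only libraries (GFP without DsRed, a mixed population with vasculature) and 3 wild-type sox10-only libraries (DsRed without GFP, a mixed population with ear). The labels stage the fli1a-only libraries at 36 hpf. They stage the sox10-only libraries at 20, 28 and 36 hpf, whereas the design text describes replicates collected together with the arch cells.

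Levels are in TPM (transcripts per 1000000), which are corrected for gene length, so levels of different genes can be set side by side. The depth of the libraries is unknown because TPM keeps none. Between 10883 and 15212 genes reached 1 TPM. Globin transcripts made up 22.7% to 61.5% of the fli1a-only libraries, most in replicate 2, and at most 1.37% of any other. All-arch replicate 2 stood apart from the other all-arch libraries: its 15 pigment genes summed to 844 TPM against 20.0 and 19.5, and its 9 blood genes to 6591 TPM. Sox10 and fli1a report on the sort itself. Fli1a lay between 41.6 and 44.5 TPM in the all-arch, 11.2 and 41.3 in the fli1a-only and 2.03 and 2.33 in the sox10-only libraries, in the order of the gates. Among the defining arch crest genes, the list of 11 summed to 4668 to 7774 TPM in the all-arch libraries and to at most 1359 in either control. In the fli1a-only libraries the 10 endothelial genes summed to 346 to 1593 TPM, against at most 33.7 in the all-arch libraries, and in the sox10-only libraries the 9 ear genes to 115 to 463 TPM, against at most 22.7.

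In arch cells the 5 genes covered a wide range of levels. Snai2 was the most abundant of them in 12 of the 13 arch libraries, with a median of 462 TPM and a range from 264 to 749. Fabp7a followed with a median of 112 TPM, then sox10 with 52.3, foxd3 with 26.2 and sox2 with 16.05. The exception was the NICD library, in which fabp7a exceeded snai2. Variation among the 3 all-arch libraries was smallest for snai2, whose highest value was 1.90 times its lowest, and largest for sox2, at 56.6 times.

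**Figure D1:**
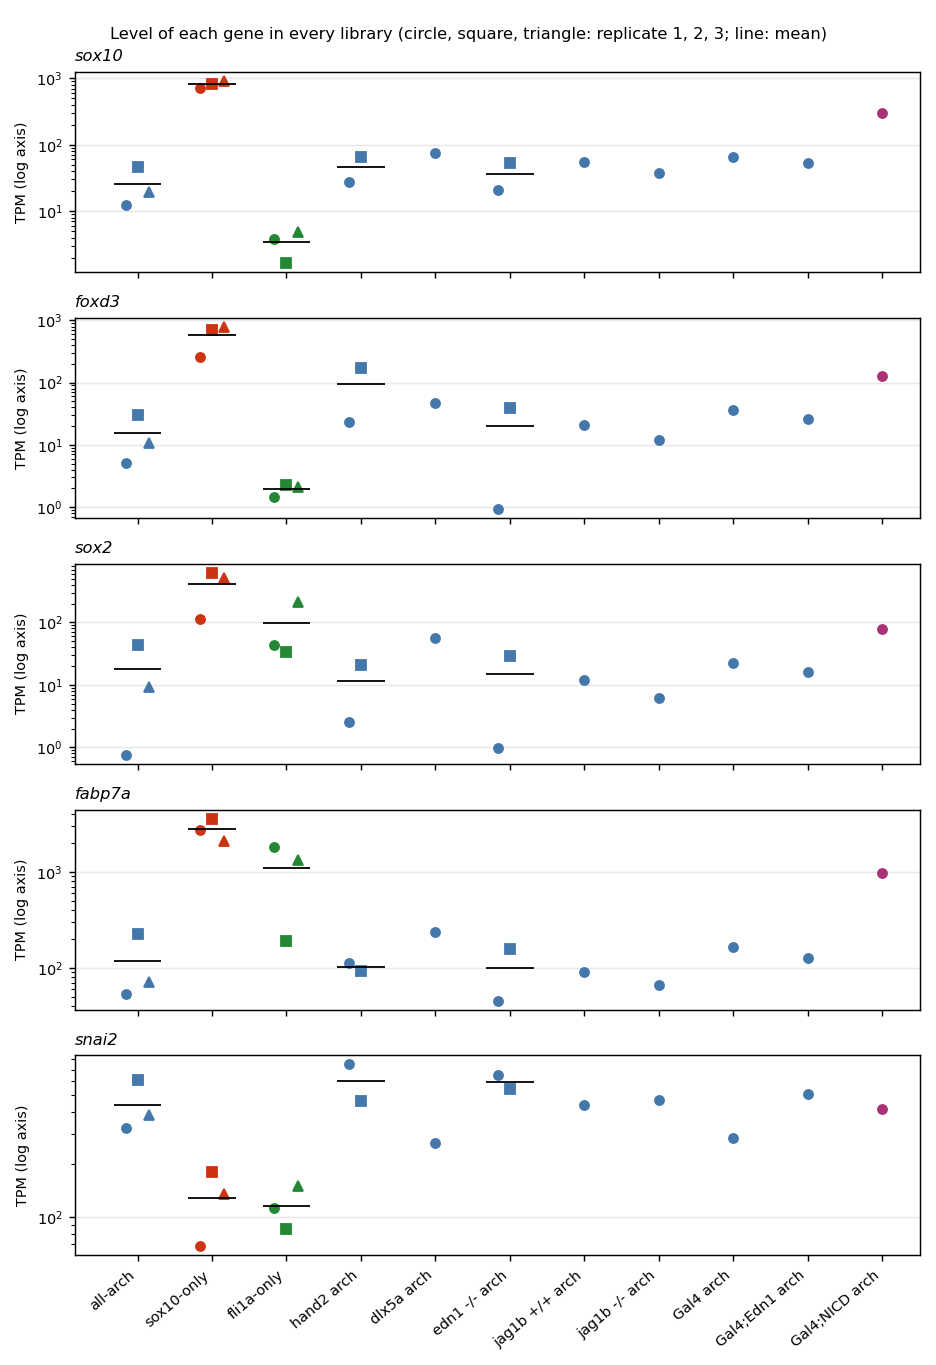
TPM of each gene in all 19 libraries on log axes, with 1 panel per gene, groups along the horizontal axis, a symbol for each replicate number and a line at the mean of groups with more than 1 library. Sox10 and foxd3 are lower in the fli1a-only than in the all-arch and sox10-only libraries, and in the fli1a-only libraries fabp7a reaches 1818 TPM, and snai2 alone is higher in the all-arch libraries than in both controls.

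The crest specifier sox10 and its companion foxd3 came first. Sox10 stood at 12.6, 46.2 and 19.3 TPM in the all-arch libraries, at 710.5, 833 and 909 TPM in the sox10-only libraries of 20, 28 and 36 hpf, and at 3.81, 1.66 and 4.86 TPM in the fli1a-only libraries. Foxd3 stood at 5.08, 30.3 and 10.8 TPM in the all-arch libraries, 259, 713 and 789 TPM in the sox10-only libraries and 1.47, 2.23 and 2.07 TPM in the fli1a-only libraries. For both genes the 3 groups did not overlap, and every all-arch library lay between the controls. Taken in pairs, these groups did not overlap for 31.4% to 47.9% of all tested genes. The share for all 3 groups together was not counted. In bulk libraries fewer cells that express a gene and less of its RNA per cell cannot be told apart.

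Set against the sox10-only libraries, sox10 was lower in all-arch cells, with a difference in log2(TPM + 1) of -5.11 (SE 0.46, limma, adjusted p = 1.94e-05), a ratio of means of 31.4. The DsRed reporter is a sox10 transgene, but both gates took DsRed-positive cells and differed in GFP. Presence of the sox10 reporter therefore does not separate these 2 groups. Foxd3, which the gates did not use, had a difference of -5.33 (SE 0.58, limma, adjusted p = 7.20e-05), a ratio of means of 38.1. Both calls held under all 13 alternatives run for this comparison. Set against the fli1a-only libraries, sox10 was higher in all-arch cells by 2.48 (SE 0.46, limma, adjusted p = 0.00710) and foxd3 by 2.17 (SE 0.58, limma, adjusted p = 0.0477). The median of all tested genes was itself shifted by 0.68 in that comparison, which leaves 1.80 for sox10 and 1.497 for foxd3 relative to the median gene. The sox10 call held under all 12 alternatives, but it describes the sort, since the fli1a-only gate left out DsRed-positive cells. The foxd3 call was lost with median-of-ratios rescaling (limma, adjusted p = 0.136), with globin genes left out (0.198), with no filter on low values (0.1004) and on the deposited scale (0.0977), and without all-arch replicate 2 (0.157) or 3 (0.130) or fli1a-only replicate 1 (0.0822) or 2 (0.0956).

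The progenitor and glial genes sox2 and fabp7a had another distribution over the controls. Sox2 stood at 0.763, 43.2 and 9.12 TPM in the all-arch libraries, at 112, 623 and 505 TPM in the sox10-only libraries and at 43.8, 33.4 and 211 TPM in the fli1a-only libraries. Fabp7a stood at 53.7, 228 and 70.7 TPM in the all-arch libraries, at 2718, 3608 and 2099 TPM in the sox10-only libraries and at 1818, 193 and 1322 TPM in the fli1a-only libraries. Both genes were abundant in the fli1a-only libraries, in which sox10 stayed below 5 TPM. Without any correction for globin the all-arch and fli1a-only values overlapped: all-arch replicate 2 exceeded fli1a-only replicate 2 for both genes. Of the latter library 61.5% was globin.

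Sox2 was lower in all-arch than in sox10-only cells by a log2 difference of -5.15 (SE 1.27, limma, adjusted p = 0.0325) and fabp7a by -4.83 (SE 0.82, limma, adjusted p = 0.00227). The sox2 call is weakly held: it was lost with a pseudocount of 0.1 (limma, adjusted p = 0.0538) and without any 1 library except all-arch replicate 2 (0.0545 to 0.154). Fabp7a kept its call without each library in turn and missed the threshold with the replicate number as a block (limma, adjusted p = 0.0559). Against the fli1a-only libraries the differences were -2.90 for sox2 (SE 1.27, limma, adjusted p = 0.124) and -3.01 for fabp7a (SE 0.82, limma, adjusted p = 0.0530), and neither passed. Fabp7a did pass as lower in all-arch cells with median-of-ratios rescaling (0.0101), with globin genes left out (0.0126), on the deposited scale (0.0395), and without all-arch replicate 2 (0.0385) or fli1a-only replicate 2 (0.00982). Within replicate number 2 both genes had the opposite sign, with all-arch minus fli1a-only differences of 0.36 for sox2 and 0.24 for fabp7a, against -4.67 and -5.06 within number 1 and -4.39 and -4.20 within number 3.

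Snai2, the repressor linked to crest emigration, was highest in all-arch cells. It stood at 322, 612 and 382 TPM in the all-arch libraries, 67.8, 182 and 135 TPM in the sox10-only libraries and 112, 85.6 and 150.3 TPM in the fli1a-only libraries. All 3 all-arch values lay above all 6 control values. In either direction, 31.4% of all tested genes did not overlap between all-arch and sox10-only libraries, and 44.3% between all-arch and fli1a-only libraries. The log2 difference was 1.82 against sox10-only (SE 0.44, limma, adjusted p = 0.0124) and 1.89 against fli1a-only (SE 0.44, limma, adjusted p = 0.0249, or 1.22 relative to the median gene). The call against sox10-only was lost without all-arch replicate 2 (limma, adjusted p = 0.0647) or sox10-only replicate 1 (0.0629). The call against fli1a-only was lost with median-of-ratios rescaling (0.0700), globin genes left out (0.131) or no filter (0.0698), and without all-arch replicate 2 (0.118) or 3 (0.0750) or fli1a-only replicate 1 (0.0547) or 2 (0.0632), while all values remained positive, from 1.06 to 2.10. Between the control groups snai2 overlapped, and the sox10-only minus fli1a-only difference of 0.07 did not pass (SE 0.44, limma, adjusted p = 0.901) and was -0.88 with median-of-ratios rescaling and -0.69 with globin genes left out.

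The counts over the set include sox10, which the gates used. Of the 5 genes, 4 were called lower and 1 higher in all-arch than in sox10-only cells. In that comparison limma called 13.4% of all tested genes, 10% as lower and 3.4% as higher. The libraries of the 2 groups did not overlap for any of the 5 genes, nor for 31.4% of all tested genes. Against fli1a-only cells 3 of 5 were called higher, where 7.05% of all genes were called (4.16% higher and 2.89% lower), and the same 3 genes did not overlap, as 44.3% of all genes did not. That split depended on scaling: 594 genes were higher and 412 lower as analysed, but 269 and 1003 with median-of-ratios rescaling, 182 and 772 with globin genes left out, and 1537 and 175 on the deposited scale. With the sox10-only library of 36 hpf taken alone, only sox10 (log2 -5.27) and foxd3 (-5.91) were called against it, while sox2 stood at -5.78, fabp7a at -4.44 and snai2 at 1.64 with limma's adjusted p of 0.324, 0.102 and 0.222.

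Between the controls themselves, 2 of the 5 genes were called, both as higher in sox10-only cells, where limma called 28.5% of all genes (24.4% higher and 4.06% lower). With the replicate number as a block the counts over all genes were 2935 rather than 1915 against sox10-only cells, 7232 rather than 1006 against fli1a-only cells and 8548 rather than 4063 between the controls. Sox10 was higher in sox10-only than in fli1a-only cells by 7.59 (SE 0.46, limma, adjusted p = 5.06e-06), the smallest unadjusted p of all 14270 tested genes. These gates divided the cells on a sox10 transgene, so the sox10 difference describes the sort. Foxd3 was higher by 7.51 (SE 0.58, limma, adjusted p = 8.55e-06). Sox2 differed by 2.26 (SE 1.27, limma, adjusted p = 0.181) and fabp7a by 1.82 (SE 0.82, limma, adjusted p = 0.102), and neither passed. The controls did not overlap for sox10, foxd3 and fabp7a, nor for 47.9% of all genes. The median gene was shifted by 0.78 in this comparison.

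**Figure D2:**
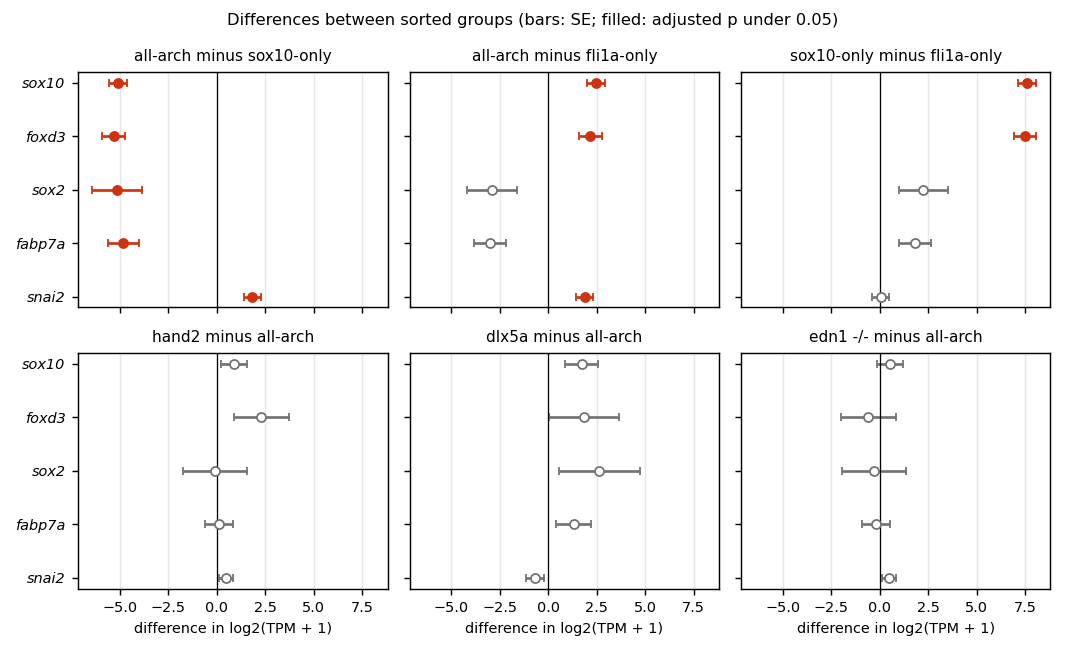
Differences in log2(TPM + 1) for the 5 genes in the 6 comparisons tested with limma, with SE as bars and filled points where the adjusted p was under 0.05. Against sox10-only cells all but snai2 lie near -5, and against fli1a-only cells sox10 and foxd3 lie above 0 while sox2 and fabp7a lie below 0 without passing the test.

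Levels were next set against sox10 within each library, which removes any scaling of the library. The amount of foxd3 per sox10 overlapped in the 3 wild-type groups, with geometric means of 0.529 in all-arch, 0.647 in sox10-only and 0.603 in fli1a-only cells. Fabp7a per sox10 was 4.27, 4.94 and 3.66 in the all-arch libraries and 3.83, 4.33 and 2.31 in the sox10-only libraries, although sox10 itself differed by a factor of 31.4 between these groups. Over all 16 libraries whose sort included DsRed, sox10 varied 72.4-fold from lowest to highest, and fabp7a per sox10 varied 3.46-fold, between 1.43 and 4.94. Over the same libraries foxd3 per sox10 varied 57.6-fold, sox2 per sox10 19.9-fold and snai2 per sox10 333-fold. The lowest foxd3 ratio, 0.0456 in edn1-/- replicate 1, rests on foxd3 at 0.935 TPM. The next lowest foxd3 ratio was 0.315 and the highest 2.63.

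For fabp7a and sox2 per sox10 the fli1a-only libraries lay outside the range of those 16 libraries. Fabp7a per sox10 was 477, 116 and 272 there, and sox2 per sox10 was 11.5, 20.1 and 43.3, against 0.157, 0.748 and 0.556 in the sox10-only libraries. In log2 the fabp7a ratio of sox10-only minus fli1a-only was -6.19 and the sox2 ratio -5.74. The groups did not overlap for either ratio, and the 2-sided exact permutation p was 0.1 for each, the smallest that 3 against 3 libraries allow. The fli1a-only gate left out DsRed-positive cells, so the sort itself fixes a low sox10 in the denominator of these ratios. Single neural genes were also high in the fli1a-only libraries. The proneural gene ascl1a stood at 506, 93.0 and 446 TPM there and at 9.11, 45.2 and 9.47 TPM in the all-arch libraries, and the neuronal gene neurod1 at 193, 34.4 and 110.2 against 2.76, 20.3 and 5.31 TPM. Of the 10 neuron markers tested, neurod1 and stmn1b were called lower in all-arch cells and 0 higher, and the median log2 difference was -0.75 for these markers and -0.89 for the 16 neural progenitor genes, against 0.68 for all genes. Summed levels did not show this: the progenitor list came to 995 to 5085 TPM in the fli1a-only and 3385 to 8322 TPM in the all-arch libraries, and the 12 neuron markers to 229.5 to 465 and 260.1 to 473 TPM. Her6, her9 and pcna made up most of the progenitor sums in all-arch cells, and tubb5, at 225 to 402 TPM, most of the neuron sums. The part of neural cells in the sox2 and fabp7a levels was not tested.

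**Figure D3:**
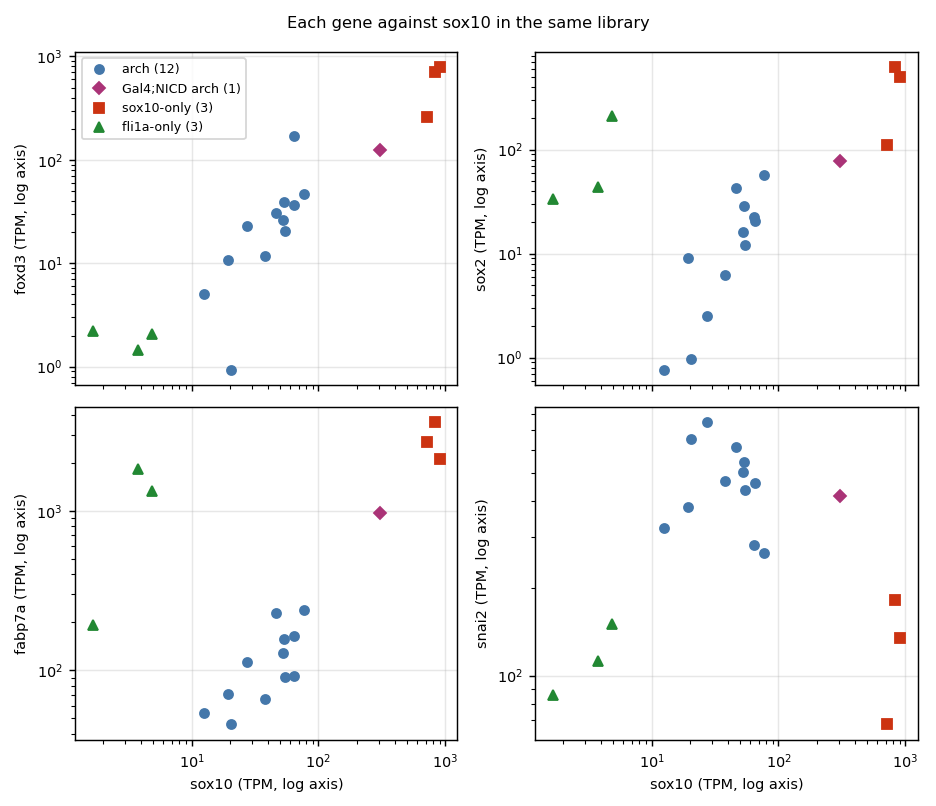
Foxd3, sox2, fabp7a and snai2 against sox10 in the same library, in TPM on log axes, with 12 arch libraries, the NICD arch library, 3 sox10-only and 3 fli1a-only libraries as separate symbols. Fabp7a lies along 1 band with sox10 over 16 libraries, and the 3 fli1a-only libraries lie to the upper left of it for sox2 and fabp7a.

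The pigment, neuron and ear markers moved with the genes that were high in sox10-only cells. The pigment list of 15 genes summed to 10349 to 31212 TPM there and to 20.8 to 30.9 TPM in the fli1a-only libraries. The neuron markers summed to 1435 to 1842 TPM and the 7 epithelial markers to 2185 to 5103 TPM. Of the tested markers, 13 of 14 pigment, 9 of 10 neuron and 6 of 7 ear genes were called lower in all-arch than in sox10-only cells. Without all-arch replicate 2, the library with pigment RNA and the highest level of all 5 genes in its group, the differences from sox10-only cells were -5.62 for sox10, -5.96 for foxd3, -6.28 for sox2 and -5.45 for fabp7a, all still called. The part of these other cells in the result was not tested further.

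Related genes place the 5 in their families. Of 11 related Sox genes, 4 were called lower in all-arch than in sox10-only cells and 0 higher (median -1.30, against -0.04 for all genes). These were the SoxE genes sox8a (0.279 ± 0.248 against 7.88 ± 5.17 TPM, mean ± SD, n = 3 and 3) and sox8b and the SoxB1 genes sox1a and sox1b. The Fabp family had 4 tested genes, of which 3 were lower, with fabp7b, the second copy of the brain type, at 1.61 ± 0.481 against 59.8 ± 32.9 TPM. Reads of near-identical copies may be shared, so single values within these families are uncertain.

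The families of foxd3 and snai2 divided. Of the 4 other FoxD genes tested 3 were called higher in all-arch than in sox10-only cells and 0 lower, the reverse of foxd3. Foxd1, a factor of arch mesenchyme, stood at 511 ± 204 TPM against 21.5 ± 14.5 (log2 4.75, limma, adjusted p = 3.54e-04) and foxd2 at 542 ± 167 against 49.8 ± 14.0 (log2 3.40). In the Snail family snai1a was higher with snai2 (195 ± 52.8 against 66.3 ± 15.6 TPM, log2 1.54, limma, adjusted p = 0.00876), whereas the Scratch genes scrt1a, scrt1b and scrt2, expressed in neurons, were called lower.

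Among 18 tested neural crest specifiers other than the 5 genes, 2 were called higher and 4 lower against sox10-only cells, and the other 12 did not pass. The basic helix-loop-helix genes twist1a (1447 ± 665 against 82.4 ± 55.7 TPM, log2 4.23) and twist1b (log2 4.02), of crest mesenchyme, were higher with snai2. Tfap2e, pax7b, ednrab and zic1 were lower, and pax7b and tfap2e are genes of pigment lineages. Of 13 tested genes of Schwann and satellite glia 9 were lower and 0 higher (median -1.64), led by the neuregulin receptor gene erbb3b at 0.320 ± 0.447 against 18.8 ± 6.64 TPM (log2 -3.91, limma, adjusted p = 1.65e-05), with olig2 (-3.62), s100b (-3.51) and pou3f1 (-3.19). The myelin protein gene mpz stayed under 1 TPM in both groups. Of 16 neural progenitor genes 7 were lower and 0 higher, such as neurog1 (log2 -4.45), a proneural factor, and ascl1a (-3.87).

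Against fli1a-only cells the Schwann list had 1 of 13 tested genes lower (olig2, log2 -3.31) and the progenitor list 1 of 16 lower (ascl1a, log2 -4.03). Among related Sox genes sox3, a SoxB1 gene like sox2, was lower (43.4 ± 9.21 against 292 ± 193 TPM, log2 -2.44, limma, adjusted p = 0.0160), and sox5 and sox8b were higher. Between the controls 7 of 13 Schwann genes were higher in sox10-only cells and 0 lower, with erbb3b at 18.8 ± 6.64 against 0.0623 ± 0.0421 TPM.

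The next comparisons asked how the genes differ within the arches by domain and endothelin signalling. Sox10 stood at 27.4 and 64.7 TPM in the hand2 libraries, 76.4 TPM in the dlx5a library and 20.5 and 53.1 TPM in the edn1-/- libraries. Foxd3 stood at 23.0 and 170.1 TPM, 46.6 TPM, and 0.935 and 38.9 TPM in the same order. Both genes lay above the all-arch range in replicate 2 of hand2 and of edn1-/- and in the dlx5a library. In replicate 1 of hand2 and of edn1-/- they lay within it, except that foxd3 lay below it in edn1-/- replicate 1.

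Sox2 stood at 2.51 and 20.4 TPM in the hand2 libraries, 56.7 TPM in the dlx5a library and 0.963 and 28.9 TPM in the edn1-/- libraries, and fabp7a at 112 and 92.5 TPM, 239 TPM, and 45.8 and 156 TPM. Snai2 stood at 749 and 462 TPM, 264 TPM, and 652 and 543 TPM. The dlx5a library was above all 3 all-arch libraries for sox10, foxd3, sox2 and fabp7a and below them for snai2, and 67% of all tested genes likewise lay outside the all-arch range in that library.

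By limma 0 of the 5 genes passed in any of these comparisons, with 1.55% of all genes called for hand2, 0.394% for dlx5a and 0.00757% for edn1-/- (1 gene, dlx4b, named after its values were seen), and 0 of the 5 had an unadjusted p under 0.05 in any of them (1419, 2232 and 368 of 13206 genes did). For hand2 minus all-arch the log2 differences were 0.88 for sox10 (SE 0.66), 2.29 for foxd3 (SE 1.42), -0.09 for sox2 (SE 1.65), 0.09 for fabp7a (SE 0.72) and 0.48 for snai2 (SE 0.37). For dlx5a minus all-arch they were 1.72 (SE 0.84), 1.86 (SE 1.80), 2.64 (SE 2.08), 1.31 (SE 0.91) and -0.68 (SE 0.47) in the same order, with the single dlx5a library assumed to vary like the others. For edn1-/- minus all-arch they were 0.54 (SE 0.66), -0.58 (SE 1.42), -0.27 (SE 1.65), -0.17 (SE 0.72) and 0.49 (SE 0.37). With standard errors of this size, differences of several fold in foxd3 and sox2 could not be told from the spread between libraries. The gene edn1 lay at 0 and 0.246 TPM in the mutant and at most 0.549 TPM in all-arch libraries, so its level does not check the genotype.

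Markers of other cells moved with these libraries. In the dlx5a library the 9 ear genes summed to 152 TPM, against 17.2 to 22.7 in the all-arch libraries, with the otolith gene stm at 49.3 TPM. The 7 epithelial markers summed to 1542 TPM there and to 1848 and 1903 TPM in the hand2 libraries. Their sums in the all-arch libraries were 93.4 to 1064 TPM. In the hand2 libraries the 5 heart genes summed to 83.9 and 267 TPM, against at most 2.83, and phox2bb, a gene of autonomic and hindbrain neurons, stood at 333 and 547 TPM against 16.6 to 46.2. The heart sum and phox2bb were both higher in hand2 replicate 2, the library with foxd3 at 170.1 TPM. Of the other neuron markers, phox2a and tubb5 were also higher in that library. Elavl3, elavl4, neurod1, stmn1b, isl1, gap43, snap25a and dbh were higher in hand2 replicate 1. In edn1-/- replicate 1, the lowest arch library for fabp7a and foxd3, 7 of 15 pigment genes were at 0. Their part in the levels was not tested.

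The related lists gave few calls in the arch comparisons. For hand2 minus all-arch, foxd7 (15.2 ± 1.86 against 238 ± 17.6 TPM, log2 -3.89, limma, adjusted p = 0.00463) and foxd5 were lower, as were ednrab, tfap2a and tfap2b among the crest specifiers, and the Notch ligand gene dla was higher (log2 1.72). For dlx5a minus all-arch zic2a and tfap2b were lower, and for edn1-/- minus all-arch 0 of the genes in these lists were called.

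The heat-shock and jag1b libraries had 1 library per group, so no test was made and values are given side by side. With NICD, sox10 stood at 304 TPM against 64.5 TPM with Gal4 alone (4.71-fold, log2 2.22), and fabp7a at 966 against 164 TPM (5.88-fold, log2 2.55). Foxd3 stood at 126 against 36.3 TPM (3.47-fold, log2 1.77) and sox2 at 78.2 against 22.3 TPM (3.50-fold, log2 1.76). Snai2 stood at 415 against 282 TPM (1.47-fold, log2 0.56). Thus 4 genes, all but snai2, were past a log2 difference of 1 with at least 10 TPM, which 5.04% of 6037 genes were in that direction, and fabp7a had the 37th and sox10 the 53rd largest increase. On the deposited scale the count was 3, since sox2 did not reach a value of 10 there.

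The NICD library also lay above the other arch libraries for some of these genes. The share of all genes for which it did so was not counted. It was above all 12 others for sox10, whose highest other value was 76.4 TPM, for sox2 (56.7 TPM) and for fabp7a (239 TPM). For foxd3 it was above 11 of 12, hand2 replicate 2 being higher, and for snai2 above 4 of 12. The ratios among the 4 genes changed less than their levels: fabp7a per sox10 was 3.18 with NICD and 2.55 with Gal4, foxd3 per sox10 0.415 and 0.563, and sox2 per sox10 0.257 and 0.347. Under the 3 alternatives run for this pair the log2 difference lay between 2.02 and 2.23 for sox10 and between 2.35 and 2.55 for fabp7a.

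**Figure D4:**
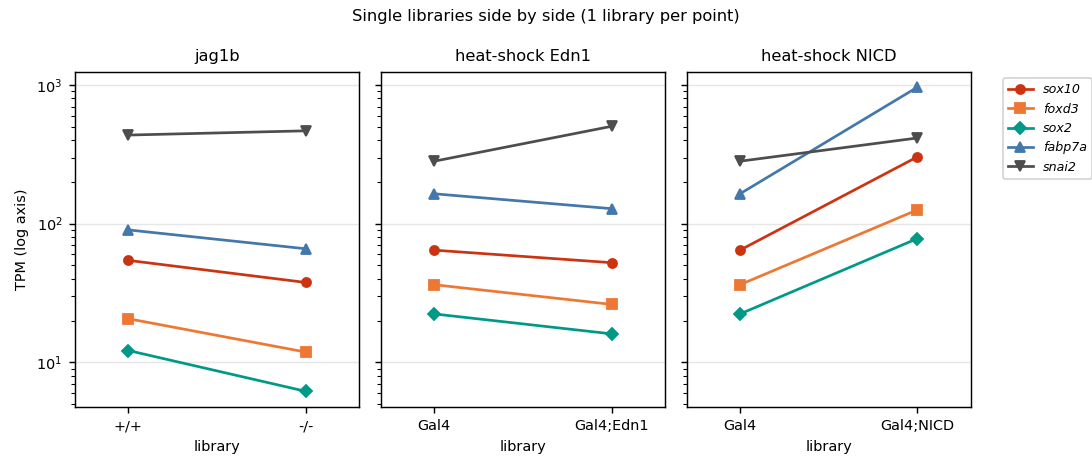
TPM of the 5 genes on a log axis in the jag1b+/+ and jag1b-/- libraries, the Gal4 and Gal4 with Edn1 libraries, and the Gal4 and Gal4 with NICD libraries, with 1 library per point. Fabp7a, sox10, foxd3 and sox2 are 3.47 to 5.88 times higher with NICD than with Gal4. With Edn1 and in the jag1b mutant they are lower, by less than the log2 SD of each gene among the all-arch libraries. The NICD difference of sox2 (log2 1.76) is also below its SD of 2.33, while those of sox10, foxd3 and fabp7a exceed theirs.

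Other genes of the lists were also past that fold with NICD. Of 12 neural progenitor genes at 10 TPM, 6 were higher and 1 lower. They included the Notch target her4.1 (2512 against 184 TPM), the receptor genes notch1a (40.9 against 4.30 TPM, which may count transgene reads) and notch3, and the ligand gene dld. Sox3 stood at 294 against 56.1 TPM and the endothelin receptor gene ednrab, which marks crest and pigment cells, at 238 against 70.9 TPM. The Schwann list had 2 of 4 genes higher, egr2a (45.6 against 10.8 TPM) and atp1a1b, with erbb3b at 4.50 against 1.13 TPM and s100b at 0.591 against 1.12 TPM. Foxd1 was lower, at 122 against 331 TPM, and snai1a higher, at 374 against 172 TPM.

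Marker sums moved in both directions between the NICD and Gal4 libraries. The pigment list summed to 119 against 84.1 TPM, with tyrp1b and pmela past the fold and gch2 (43.0 against 35.7 TPM) and pnp4a (39.4 against 41.6 TPM), the most abundant of the list, not. The ear list summed to 54.6 against 31.98 TPM, the epithelial list to 547 against 296 TPM, the neuron list to 255 against 389 TPM and the arch crest list to 2398 against 4673 TPM, with hand2, dlx5a, dlx3b and barx1 lower. Their part in the result was not tested.

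With Edn1 0 of the 5 genes passed the fold, where 3.71% of 5960 genes did in either direction. Sox10 stood at 52.3 against 64.5 TPM, foxd3 at 26.2 against 36.3, sox2 at 16.05 against 22.3 and fabp7a at 128 against 164 TPM, and snai2 at 504 against 282 TPM (log2 0.83). The median gene was shifted by 0.22 in this pair. Ranked from the largest increase, snai2 stood 231st of 5960 genes, and the other members between 5594th (sox10) and 5732nd (foxd3). The gene edn1 stood at 20.9 against 1.37 TPM, which may count transgene reads. The blood list summed to 484 with Edn1 against 3971 TPM with Gal4, and the pigment list to 145 against 84.1 TPM. This pair and the NICD pair share the Gal4 library. In the jag1b mutant 0 of 5 passed, where 0.892% of 5718 genes did: sox10 stood at 37.7 against 54.4 TPM, foxd3 at 11.9 against 20.6, sox2 at 6.18 against 12.2, fabp7a at 65.9 against 90.2 and snai2 at 467 against 436 TPM. The log2 differences of the first 4 genes in the jag1b mutant lay between -0.88 and -0.45, and the median absolute difference of all genes was 0.126. Ranked from the largest increase, these 4 stood between 5509th (fabp7a) and 5665th (sox2) of 5718 genes. Her4.1 in the same pair stood at 54.2 against 214 TPM. The epithelial list summed to 59.9 against 444 TPM, the blood list to 753 against 1593 and the ear list to 24.8 against 14.8 TPM. The part of such other cells in the Edn1 and jag1b pairs was not tested.

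Likeness separated the genes into pairs over all 19 libraries but not over the arch libraries alone. The 19 include the fli1a-only libraries, whose gate left out DsRed-positive cells and so fixed a low sox10. Over all 19 libraries sox10 was closest to foxd3 (Pearson r of log2(TPM + 1) 0.93) and sox2 to fabp7a (0.89), while snai2 had r from -0.71 to -0.05 with the others. Over the 13 arch libraries sox10, foxd3, sox2 and fabp7a had r from 0.72 to 0.89 with each other and snai2 from -0.28 to -0.16 with them. Sox10 was closer there to fabp7a (0.89) and sox2 (0.84) than to foxd3 (0.80). Without the NICD library the range for the first 4 was 0.68 to 0.87. These values describe libraries that share groups, replicate numbers and preparation, and carry no test.

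Among genes with a mean of at least 10 TPM the nearest to foxd3 was BX664614.1, with r of 0.99 over the 19 libraries and over the 13 arch libraries. Nothing in the files gives its place relative to foxd3. Sox10 over 19 libraries was followed by BX664614.1 (0.95), si:dkeyp-28d2.4 (0.93), foxd3 (0.93), slc1a3a (0.93), a glutamate transporter gene, and ldhba (0.92). Within the 13 arch libraries fabp7a was the nearest of 5939 genes to sox10 (0.89), ahead of fabp3 (0.88), nr4a2b (0.86) and sox2 (0.84). Over the 19 libraries sox2 was nearest to mcamb (0.96) and fabp7a to ckbb (0.94), a brain-type creatine kinase gene, and sox21b (0.92). Snai2 was nearest there to bmpr1ab (0.95), a BMP receptor gene, with dlx2a (0.91), an arch patterning gene, also among its closest genes. Within the arches snai2 was nearest to cdc73 and rps6ka3a (both 0.92).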

How the data were processed

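RNA sequencing libraries were prepared with SMARTer and Kapa Hyper kits, per the labels' protocols. Paired ends were read on 2 Illumina instruments, and the labels do not tie libraries to either. The submitters' processing notes name the build GRCz10 and the tools TopHat2 and Partek, without versions. The deposited TPM of the authors sum to about 93168.2 in each of the 19 columns, and all values were multiplied by 10.7333 to sum to 1000000, which changes no ratio but changes what a pseudocount of 1 means. No coordinates or sequences are given.

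Values were tested as log2(TPM + 1), which understates changes of low genes, with limma 3.58.1 in R 4.3.3 (trend, robust, 2-sided) and Benjamini-Hochberg adjustment at 0.05, over genes with a mean of at least 1 TPM. The first fit held the 9 all-arch, sox10-only and fli1a-only libraries (14270 genes) and the second the 8 all-arch, hand2, dlx5a and edn1-/- libraries (13206 genes). The fits were checked for recovery of set differences on simulated data. The simulated libraries varied independently, so the check does not cover deviations shared by same-numbered libraries. Single pairs of libraries were called at a log2 difference of at least 1 with 10 TPM in the higher library. Groups follow the labels. Separate clutches are not stated for replicates, so the p-values reflect variation among these libraries alone, and that variation may be technical. By the labels the spread of the sox10-only libraries also includes stage (20, 28 and 36 hpf). Each of these stages has its own replicate number.

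Same-numbered libraries of the first fit deviated together from their group means (correlations across genes of 0.306 to 0.739 in 3 pairs per comparison). The design text describes joint isolation, so the numbers may pair the libraries. The labels do not say what a replicate number marks, and the main fits leave this pairing out. The fit with the replicate number as a block is printed where it changes a call. The 5 genes and the 16 gene lists (167 of 172 members found) were chosen with earlier results of these data known. List genes named are called ones with the largest changes. Alternatives were a pseudocount of 0.1, the deposited scale, no filter, median-of-ratios rescaling, globin genes left out, each library left out, the block, and the 36 hpf sox10-only library alone.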

Additional observations from a re-analysis of the deposited data

How the results depend on the processing

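Alternative values of the tested comparisons counted as unchanged where they kept direction and side of the threshold. Those of the single-library pairs counted as unchanged where they moved by less than the gene's log2 SD among the all-arch libraries. Sox2 with NICD thus counted as unchanged on the deposited scale, where it did not reach the level needed for a call. The 5 genes had 385 alternative values, of which 333 were unchanged, 27 lost a call and 5 gained one. The other 20 changed sign, all in differences that passed neither as analysed nor under the alternative. Among these, snai2 between the controls (0.07) became -0.88 with median-of-ratios rescaling, -0.69 with globin genes left out and -0.24 to 0.47 with single libraries left out. Hand2 minus all-arch became 0.062 with a pseudocount of 0.1 and 0.066 with median-of-ratios rescaling for sox2 (-0.09 as analysed) and -0.12 with the replicate block for fabp7a (0.09). With single libraries left out, hand2 minus all-arch ranged from -1.40 to 1.21 for sox2 and -0.32 to 0.71 for fabp7a, and edn1-/- minus all-arch from -0.13 to 1.20 for sox10, -2.76 to 1.61 for foxd3, -2.23 to 1.69 for sox2 and -1.05 to 0.71 for fabp7a. Genes of the set called against sox10-only cells, 5 as analysed, came to 2 with the 36 hpf library alone, and to 3 to 4 with single libraries left out. Against fli1a-only cells the 3 calls became 1 with no filter and 1 to 3 with single libraries left out. With median-of-ratios rescaling or globin genes left out, foxd3 and snai2 lost their calls as higher and fabp7a gained one as lower. Counts over all genes moved more. All-arch against sox10-only cells gave 1915, and 636 on the deposited scale, 3035 with no filter, 2935 with the replicate block and 1228 with the 36 hpf library alone. All-arch against fli1a-only cells gave 1006, and 1712 on the deposited scale, 510 with no filter, 7232 with the replicate block and 372 to 4742 with single libraries left out. The controls against each other gave 4063, and 2185 on the deposited scale, 2449 with median-of-ratios rescaling (1109 higher, against 3483 as analysed), 2251 with globin genes left out, 8548 with the replicate block, 1621 with the 36 hpf library alone and 1806 to 6531 with single libraries left out. Hand2 against all-arch gave 205, and 84 on the deposited scale, 95 with no filter, 384 with the replicate block and 35 to 68 with single libraries left out. Dlx5a gave 52, and 8 on the deposited scale, 251 with no filter and 0 to 8 with single libraries left out. Edn1-/- gave 1, and 2 with no filter, 3 with median-of-ratios rescaling and 0 to 4 with single libraries left out. The cause of these moves was not tested.

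The replicate block changed no call of the 5 genes other than fabp7a against sox10-only cells. In the second fit only numbers 1 and 2 are shared, with correlations of 0.484 to 0.634, and 0 of the 5 genes was called with the block there. Depth is unknown, so the precision of low values such as sox2 in all-arch replicate 1 could not be judged.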
